A study of Mus musculus with 8 samples.

Results

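The genes described here encode the constitutive 26S proteasome, the chaperones that assemble it and the regulators that bind its core. They were chosen by name alone, as the genes whose symbol starts with *Psm*, a letter from a to g and a digit. The 5 genes of the immunoproteasome and of its activator PA28αβ (*Psmb8*, *Psmb9*, *Psmb10*, *Psme1* and *Psme2*) were left out and serve as a comparison. This gave 46 of the 41709 genes measured in mouse tibialis anterior (TA) skeletal muscle. Of the 46 genes, 31 encode subunits of the 26S particle, 4 encode chaperones of the 20S core, 3 encode chaperones of the 19S base and 3 encode other activators or an inhibitor of the core (*Psme3*, *Psme4* and *Psmf1*). *Psma8* and *Psmb11* encode core subunits known from testis and thymus, and *Psme2b* is a copy of *Psme2*. *Psmc3ip*, a recombination factor of meiosis, and *Psme3ip1*, whose protein binds Psme3, matched by name without being proteasome subunits.

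RNA-seq was done on whole TA muscles of C57BL/6J males at 3 months of age, 7 days after electroporation of 1500 pmol of pooled siRNAs in 30 μl into muscles pretreated with hyaluronidase. In each of 4 mice, 1 leg received siRNAs to *Uba1* and the other leg non-targeting (NT) control siRNAs, which gave 4 muscles per group, and the mice of replicates 1 to 4 are called mice 1 to 4 below (the labels number the animals 1, 6, 7 and 9). All legs with *Uba1* siRNAs are labelled L and all legs with NT siRNAs R, so that side and siRNA cannot be told apart. The treatment tags write UBA2, UBA3 and UBA4 for replicates 2, 3 and 4, where titles and descriptions write UBA1, and the muscles were grouped by the descriptions.

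The 20S core of the proteasome is a barrel of alpha and beta rings, in which the beta subunits Psmb5, Psmb6 and Psmb7 carry the proteolytic sites. The 19S regulatory particle caps the core: the ATPases of its base (Psmc1 to Psmc6) unfold substrates, its receptors bind ubiquitin chains, and its lid holds the deubiquitinase Psmd14. Uba1 is the main E1 enzyme that activates ubiquitin, and thus stands upstream of the chains that bring most substrates to the 26S proteasome. In skeletal muscle this route degrades much of the contractile protein that is lost in atrophy.

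*Uba1* mRNA was at 59.0 to 63.6 TPM (transcripts per 1000000, a unit corrected for transcript length) with NT siRNAs and at 6.77 to 23.1 TPM with *Uba1* siRNAs, without overlap. Its log2FC (the difference of the mean log2(TPM + 1), *Uba1* siRNAs minus NT siRNAs, as for all log2FC given here) was -1.98, with an adjusted p of 0.0527 from limma and 0.0278 with the mouse as a block. Transcripts of the mitochondrial genome took 42.1% to 45.7% of the TPM with NT siRNAs and 39.9% to 50.3% with *Uba1* siRNAs, and were highest (50.3%) with *Uba1* siRNAs in mouse 2. The summed TPM of 10 muscle fiber markers ranged from 124440 to 134310 with NT siRNAs and from 99843 to 135080 with *Uba1* siRNAs, so that muscle mRNA was abundant in every sample. Between the legs of a mouse, this sum was higher with *Uba1* siRNAs in 1 of 4 mice. In limma 0 of the 10 genes were higher or lower at an unadjusted p under 0.05. After median-ratio scaling 4 were lower at that p (6.18% of all genes tested were) and 0 higher (4.43%). The sums of leukocyte (134 to 413 and 126 to 428 TPM), endothelial (142 to 214 and 161 to 204 TPM), Schwann cell (74.4 to 106 and 56.5 to 118 TPM) and satellite cell markers (19.8 to 24.8 and 21.5 to 27.4 TPM) overlapped between the groups, as did those of 8 fibroblast markers (605 to 1246 and 770 to 1531 TPM, with 7 of 8 genes at a log2FC above 0) and of 5 adipocyte markers (33.2 to 75.7 and 7.44 to 57.9 TPM, with all of the 4 genes tested at a log2FC below 0). Within mice, the leg with *Uba1* siRNAs had the higher sum of fibroblast markers and of satellite cell markers in 4 of 4 mice, and the lower sum of adipocyte markers in 4 of 4. The satellite cell markers did not share a direction. Of these 5 genes, 3 had a log2FC above 0, and *Vcam1* (log2FC -0.54) was lower in 4 of 4 mice without overlap. With the mouse as a block in limma, 4 of the 8 fibroblast markers were higher at an unadjusted p under 0.05 (22.4% of all genes were) and 3 of the 4 adipocyte markers lower (2.80% were), while 0 passed the adjusted p. No marker was at 0 in all muscles, and 1 leukocyte marker (*Cd3e*) was at 0 in 1 muscle. In bulk tissue, fewer cells of a type and less RNA per cell cannot be told apart, and the part of other cell types in the values below was not tested.

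The 26S subunits were abundant and even mRNAs of this muscle. With NT siRNAs the 31 subunit genes had mean levels from 33.0 TPM (*Psmd11*) to 224 TPM (*Psmb5*), a range of 6.80-fold, and the 43 of the 46 genes that passed the filter of 1 TPM in at least 4 of the 8 muscles had a median of 52.2 TPM, against 6.95 TPM over all 11530 genes that passed. Their spread was small as well, with a median coefficient of variation of 7.09% over the 4 muscles with NT siRNAs, against 9.77% over all genes, and of 9.55% against 12.1% over the 4 muscles with *Uba1* siRNAs. No comparison was made with genes at a like level. *Psmb5*, the chymotrypsin-like subunit, was first among the 31 in all 8 muscles, and the ATPase *Psmc5* (175 TPM) was second in all 8. *Psma6* (144 TPM), *Psmc3* (135 TPM) and *Psmd2* (121 TPM) changed places between muscles. The same held for *Psmb6*, *Psmc1*, *Psmd7*, *Psmb7* and *Psmd8*, which lay within the spread of each other at 105 to 122 TPM, whereas *Psmb4* (86.2 TPM) was in the same place, below them, in every muscle. The chaperones of the core were expressed far lower, from 2.85 TPM (*Psmg3*) to 17.2 TPM (*Psmg2*), and those of the base from 4.40 TPM (*Psmd5*) to 9.28 TPM (*Psmd10*). Of the 3 genes below the filter, *Psma8* was listed at 0 in 4 muscles and reached 0.0831 TPM, *Psmb11* was listed at 0 in 6 muscles and reached 0.0141 TPM, and *Psme2b* ranged from 0.151 to 1.07 TPM. Proteasome genes have processed copies in the mouse genome, and the counting of reads with several matches is not given in the sources used here, so that the levels of single subunits are uncertain to that extent.

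**Figure D1:**
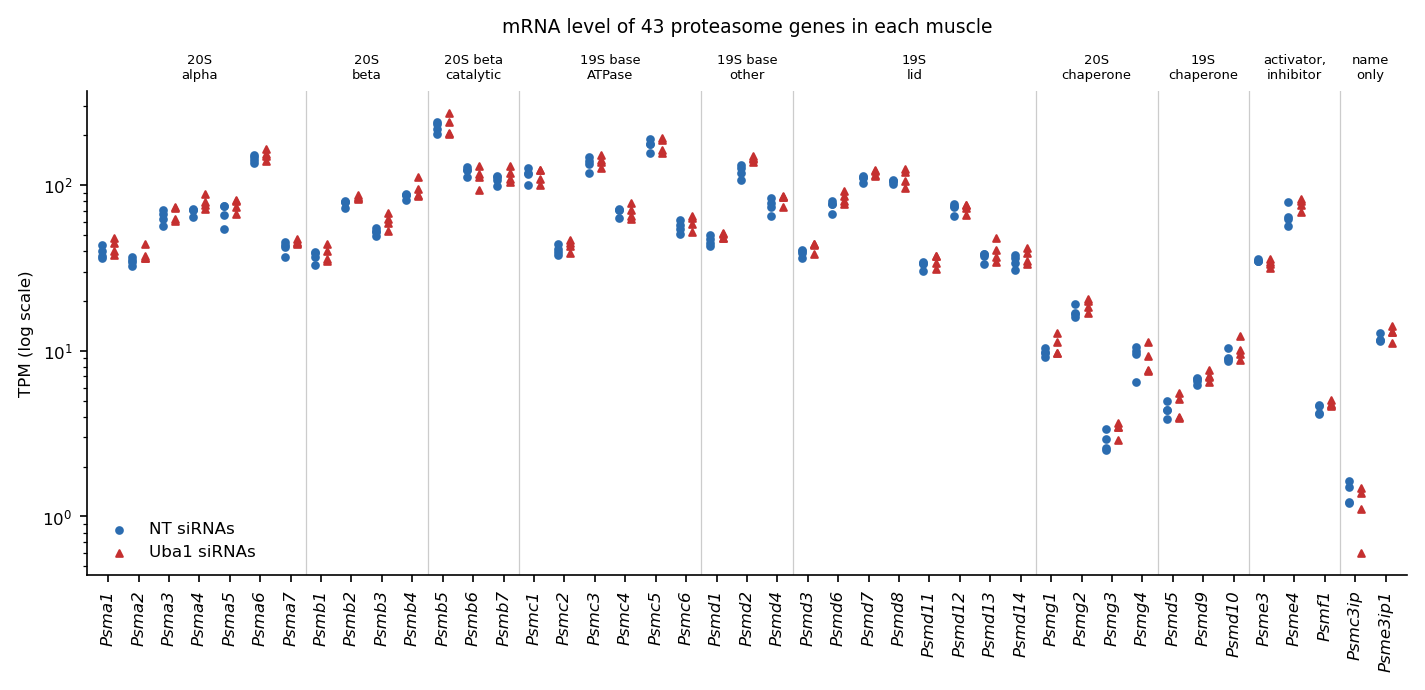
mRNA level in TPM, on a log axis, of the 43 proteasome genes that passed the filter, with 1 point for each muscle (circles, NT siRNAs, n = 4; triangles, *Uba1* siRNAs, n = 4) and genes grouped by role. The points of both groups lie close together for nearly every gene, subunits lie above 30 TPM, and the chaperones lie below 21 TPM.

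Transcription of proteasome genes is known to respond to the factor Nrf1 (*Nfe2l1*), which binds the antioxidant response element, and many of their promoters carry a CCAAT box. RefSeq promoters (GRCm38.p6, the 250 bases before the start) were found for 38 of the 46 genes and searched on both strands for the core of that element, TGACNNNGC, and for CCAAT. No promoter among the 38 held both. The first was present in 5 of 38 promoters (13.2%), against 14.1% of the promoters of all genes tested and 11.5% of all 27025 promoters. The second was present in 15 of 38 (39.5%), against 40.3% and 37.5%. The 5 stretches with the first motif are shown because 2 of the catalytic subunits are among them. Each runs 5′ to 3′ on the strand of its gene, with the match in capitals, which is the reverse complement of the motif in *Psmc6* and *Psmd12*.
Psmb5 (chr14:54618024-54618052, minus strand): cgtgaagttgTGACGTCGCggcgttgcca
Psmb6 (chr11:70525338-70525356, plus strand): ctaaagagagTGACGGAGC
Psmc6 (chr14:45329587-45329615, plus strand): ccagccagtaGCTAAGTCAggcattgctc
Psmd12 (chr11:107479278-107479299, plus strand): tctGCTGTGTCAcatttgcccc
Psmd9 (chr5:123228149-123228177, plus strand): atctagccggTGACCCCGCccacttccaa
The matches begin 47, 9, 227, 247 and 31 bases before the start, in that order. A match is a run of letters and not a binding site, and the log2FC of these 5 genes did not share a sign.

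With *Uba1* siRNAs the mRNAs of the proteasome differed little from those with NT siRNAs. No gene among the 43 reached an adjusted p under 0.05 in limma, where 3 of 11530 genes did (0.0260%), and the smallest adjusted p was 0.174 (*Psmd2*). With the mouse as a block 57 genes were called (0.494%) and again 0 of the 43. The exact Kruskal-Wallis test cannot give a p under 0.0286 with 4 muscles against 4, and called 0 genes, *Uba1* included (adjusted p = 0.245), so that it says nothing about single genes here. At an unadjusted p under 0.05, limma gave 4 genes that were higher with *Uba1* siRNAs (*Psma4*, *Psmb3*, *Psmd2* and *Psme4*; 9.30% of the 43), against 16.0% of all genes tested, and 0 that were lower, against 1.98% of all genes. With the block there were again 4 that were higher (*Psmb3*, *Psmd2*, *Psmg3* and *Psme4*), against 22.4% of all genes, and 0 that were lower, against 2.80%. Rescaling the TPM without mitochondrial genes gave 7 that were higher, of the 44 that passed the filter on that scale, against 21.2% of all genes, and 0 that were lower, against 2.07%. Without both muscles of mouse 1 there were 1 that was higher (*Psmd2*), against 9.59% of all genes, and 1 that was lower (*Psmb6*), against 2.34%. A log2FC above 0 was found for 35 of the 43 genes (81.4%), which is near the share among all genes (81.8%). The median log2FC was 0.097 over the 43 genes and 0.11 over all genes tested, a difference of -0.0087. Only 14 of the 43 genes had a log2FC above 0 after median-ratio scaling, which brought the median of all genes to 0.0016, and 50.7% of all genes did, so that the direction of a small log2FC below depends on the scaling. After quantile normalization 29 of the 43 genes had a log2FC above 0, against 54.6% of all genes. The 95% intervals of the log2FC of the 31 subunits lay between -0.34 and 0.42, which is a ratio of 0.790 to 1.34 on the scale of TPM + 1.

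**Figure D2:**
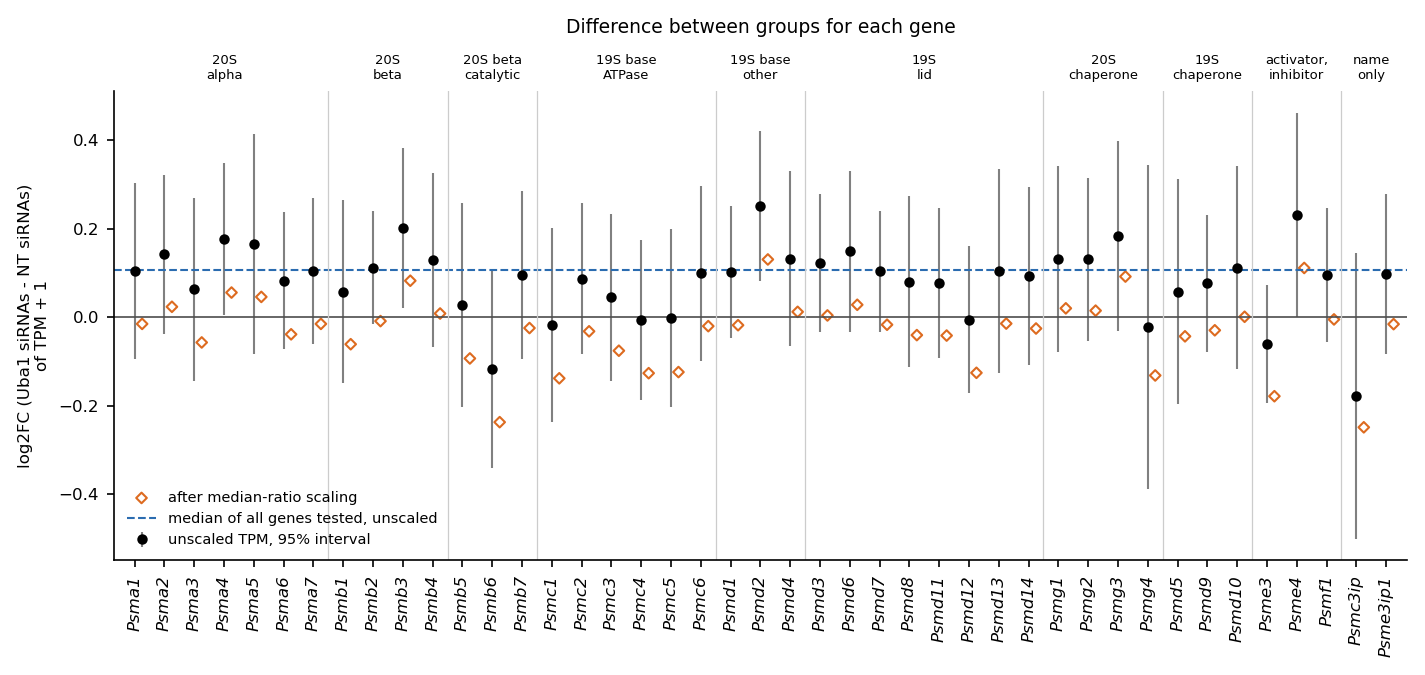
The log2FC of each of the 43 genes with its 95% interval from limma (filled circles; 4 muscles per group), and the log2FC after median-ratio scaling (open diamonds). The dashed line is the median of all 11530 genes tested (0.11), around which the filled circles scatter. Of the 43 diamonds, 14 lie above 0, and their median is -0.018.

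All 7 subunits of the alpha ring, which gates the core, had a log2FC above 0, from 0.063 (*Psma3*) to 0.18 (*Psma4*), with a median of 0.10. The 7 values lay around the median of all genes, and 3 of the 7 stayed above 0 after median-ratio scaling. *Psma4* (chr9:54858066-54866448 of GRCm39, plus strand) was at 64.6, 70.8, 71.9 and 71.1 TPM with NT siRNAs in mice 1 to 4, and at 88.6, 72.1, 79.4 and 75.6 TPM with *Uba1* siRNAs. The groups did not overlap, by a margin between 71.9 and 72.1 TPM, and the gene was higher in 4 of 4 mice. Its log2FC was 0.18 (standard error 0.076) with an adjusted p of 0.267 from limma, and 0.055 after median-ratio scaling. Among the 43 genes, *Psma4*, *Psmb2* and *Psmd2* were higher without overlap (6.98%) and 0 were lower, against 10.6% and 1.01% of all genes tested.

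The 4 structural subunits of the beta ring had a log2FC from 0.058 (*Psmb1*) to 0.20 (*Psmb3*), with a median of 0.12, and 2 of the 4 were above 0 after median-ratio scaling. *Psmb3* (chr11:97594073-97604335, plus strand) was at 49.5, 51.7, 52.7 and 54.8 TPM with NT siRNAs and at 67.5, 52.8, 62.1 and 59.1 TPM with *Uba1* siRNAs. It was higher in 4 of 4 mice, but the groups overlapped through mouse 2. Its log2FC was 0.20 (standard error 0.080), with an adjusted p of 0.242 from limma and a log2FC of 0.082 after median-ratio scaling. *Psmb2* was at 72.8 to 80.1 TPM with NT siRNAs and at 82.0 to 86.7 TPM with *Uba1* siRNAs, with a log2FC of 0.11 (adjusted p = 0.322 from limma) that was -0.0090 after median-ratio scaling.

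The 3 catalytic subunits had log2FC of both signs on the deposited TPM, and all 3 were below 0 after median-ratio scaling. *Psmb5* (chr14:54850776-54855481, minus strand), with chymotrypsin-like activity, was at 204, 235, 240 and 218 TPM with NT siRNAs and at 271, 206, 240 and 204 TPM with *Uba1* siRNAs. Its highest level was that with *Uba1* siRNAs in mouse 1, the other muscles of both groups overlapped, and the log2FC was 0.028 (95% interval -0.20 to 0.26, adjusted p = 0.890 from limma). It was -0.093 after median-ratio scaling, -0.054 without the *Uba1* siRNA muscle of mouse 1 and -0.016 without its NT muscle. *Psmb6* (chr11:70416183-70418684, plus strand), with caspase-like activity, was at 111, 123, 128 and 124 TPM with NT siRNAs and at 130, 93.5, 116 and 111 TPM with *Uba1* siRNAs. It was lower in 3 of 4 mice and higher in mouse 1, with a log2FC of -0.12 (95% interval -0.34 to 0.11, adjusted p = 0.526 from limma). The log2FC was -0.031 without the *Uba1* siRNA muscle of mouse 2 and -0.19 without that of mouse 1. After median-ratio scaling its log2FC was -0.24 with an unadjusted p of 0.0106 and an adjusted p of 0.295, and it was then 1 of the 2 genes of the 43 at an unadjusted p under 0.05 and lower, next to *Psme3* (6.18% of all genes tested were). No gene of the 43 was then at an unadjusted p under 0.05 and higher, where 4.43% of all genes were. *Psmb7* (chr2:38478044-38534099, minus strand), with trypsin-like activity, was at 98.8, 107, 112 and 114 TPM with NT siRNAs and at 131, 109, 118 and 104 TPM with *Uba1* siRNAs. Its groups overlapped as well, with a log2FC of 0.096 (95% interval -0.094 to 0.29, adjusted p = 0.536 from limma) that was -0.025 after median-ratio scaling and 0.034 without the *Uba1* siRNA muscle of mouse 1.

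Because the 14 constitutive subunits are built into the core in equal number, the level of each was also taken as a share of the summed TPM of the 14 in the same muscle, which does not depend on the scaling of that muscle. *Psmb6* made up 10.4%, 10.4%, 10.5% and 10.3% of the core mRNA with NT siRNAs and 9.42%, 8.32%, 9.08% and 9.56% with *Uba1* siRNAs. It was lower in all 4 mice, without overlap, with a mean share of 10.4% ± 0.11 against 9.09% ± 0.55 (SD, n = 4 muscles each). *Psma4* had a share of 5.96% ± 0.069 with NT siRNAs and 6.38% ± 0.12 with *Uba1* siRNAs, and *Psmb3* of 4.47% ± 0.14 and 4.88% ± 0.16, both higher without overlap. The other 11 shares overlapped, among them that of *Psmb5*, at 19.2% ± 0.81 and 18.6% ± 0.88. These 3 genes were singled out after their values were seen, and no test is given. Of all genes tested, 2.63% were higher and 2.24% lower without overlap when their TPM was divided by the same sum. The 14 genes make up that sum and the other genes do not, so that these rates are not a like comparison. The shares are also tied to each other, since a lower share of *Psmb6* raises those of the other subunits.

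**Figure D3:**
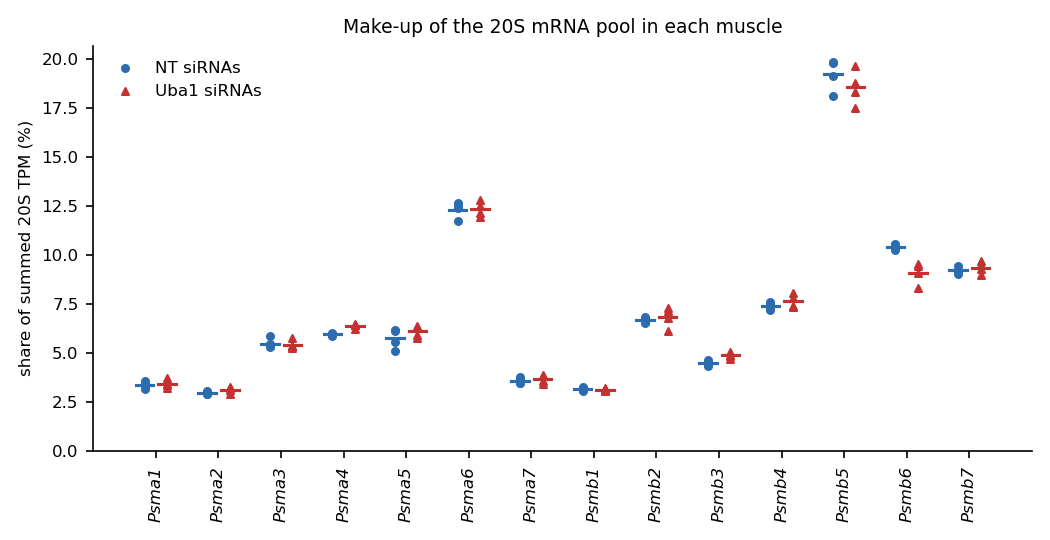
Share of each of the 14 constitutive subunits in the summed TPM of the 20S core, in percent, for each muscle (circles, NT siRNAs; triangles, *Uba1* siRNAs; the bars are means of 4 muscles). *Psmb6* was at 10.3% or more with NT siRNAs and at 9.56% or less with *Uba1* siRNAs, whereas most other subunits overlapped.

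The 6 ATPases of the 19S base had the smallest median log2FC among the groups of 26S subunits, at 0.021. *Psmc1* (-0.017), *Psmc4* (-0.0065) and *Psmc5* (-0.0029) were below 0, *Psmc2*, *Psmc3* (0.045) and *Psmc6* (0.099) above, and all 6 were below 0 after median-ratio scaling, with a median of -0.10. *Psmc2* (chr5:21989254-22008796, plus strand) was at 37.8, 41.1, 39.6 and 44.2 TPM with NT siRNAs and at 46.5, 39.1, 44.7 and 42.8 TPM with *Uba1* siRNAs. It had the smallest p of the 6 genes, yet its groups overlapped, it was higher in 2 of 4 mice, and its log2FC was 0.087 (adjusted p = 0.531 from limma), or 0.052 without the *Uba1* siRNA muscle of mouse 1 and 0.13 without that of mouse 2.

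The other 3 subunits of the base all had a log2FC above 0 (2 of them after median-ratio scaling). *Psmd2* (chr16:20470346-20485708, plus strand), the scaffold that docks ubiquitin-like domains of shuttle factors, was at 107, 128, 118 and 133 TPM with NT siRNAs and at 138, 149, 145 and 144 TPM with *Uba1* siRNAs. The groups did not overlap, each mouse was higher in the leg with *Uba1* siRNAs, and the log2FC of 0.25 (standard error 0.075, 95% interval 0.081 to 0.42) was the largest of the 43 genes. Its unadjusted p was 0.00842 and its adjusted p 0.174 from limma, and the log2FC was 0.13 after median-ratio scaling. *Psmd4* (chr3:94937765-94949925, minus strand), a receptor for ubiquitin chains, was at 64.9, 77.5, 73.8 and 83.5 TPM with NT siRNAs and at 84.3, 73.8, 85.6 and 84.3 TPM with *Uba1* siRNAs. It was lower in mouse 2 and higher in the others. Its log2FC was 0.13 (adjusted p = 0.420 from limma), 0.066 without the NT muscle of mouse 1 and 0.012 after median-ratio scaling. *Psmd1*, the other large scaffold of the base, had a log2FC of 0.10.

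Of the 8 lid subunits, 7 had a log2FC above 0 (2 after median-ratio scaling) and the median was 0.098 (-0.021), with a range from -0.0056 (*Psmd12*) to 0.15 (*Psmd6*). *Psmd6* (chr14:8348762-8357589, plus strand), a structural subunit, was at 67.1, 76.5, 76.9 and 80.5 TPM with NT siRNAs and at 92.0, 79.7, 85.8 and 76.8 TPM with *Uba1* siRNAs. The groups overlapped through mouse 4, the only mouse in which it was lower. The adjusted p was 0.345 from limma, and the log2FC was 0.095 without the NT muscle of mouse 1 and 0.028 after median-ratio scaling. *Psmd14* (chr2:61542026-61631607, plus strand), the deubiquitinase that removes chains as substrates enter, was at 30.9, 36.4, 37.7 and 34.1 TPM with NT siRNAs and at 41.5, 35.0, 38.8 and 33.5 TPM with *Uba1* siRNAs. It was higher in mice 1 and 3 and lower in mice 2 and 4, with a log2FC of 0.093 (95% interval -0.11 to 0.29, adjusted p = 0.571 from limma). It was 0.040 without the NT muscle of mouse 1 and 0.14 without the *Uba1* siRNA muscle of mouse 4.

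The chaperones of the core, Psmg1 to Psmg4, help to build the alpha ring. Their log2FC ranged from -0.022 (*Psmg4*) to 0.18 (*Psmg3*), with a median of 0.13, and 3 of the 4 were above 0, also after median-ratio scaling. *Psmg3* (chr5:139809347-139812741, minus strand) was at 2.52, 2.92, 3.37 and 2.60 TPM with NT siRNAs and at 3.47, 3.45, 3.68 and 2.89 TPM with *Uba1* siRNAs. It was higher in 4 of 4 mice but the groups overlapped, and the adjusted p was 0.328 from limma. The chaperones of the base had a log2FC of 0.058 (*Psmd5*), 0.077 (*Psmd9*) and 0.11 (*Psmd10*). *Psmd9* (chr5:123307476-123388656, plus strand) was at 6.24, 6.87, 6.72 and 6.56 TPM with NT siRNAs and at 7.67, 6.47, 7.0 and 6.94 TPM with *Uba1* siRNAs. Its groups overlapped, it was higher in 3 of 4 mice (adjusted p = 0.547 from limma), and its log2FC was -0.030 after median-ratio scaling and 0.038 without the *Uba1* siRNA muscle of mouse 1.

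*Psme4* encodes PA200, an activator that opens the core without ubiquitin or ATP. The gene (chr11:30721725-30830376, plus strand) was at 56.8, 64.3, 62.2 and 78.6 TPM with NT siRNAs and at 69.0, 82.0, 75.4 and 80.0 TPM with *Uba1* siRNAs. It was higher in 4 of 4 mice, and the groups overlapped because the NT muscle of mouse 4 stood at 78.6 TPM. Its log2FC was 0.23 (standard error 0.10), with an unadjusted p of 0.0497 and an adjusted p of 0.278 from limma, and 0.11 after median-ratio scaling. *Psme3*, which encodes the activator PA28γ, had a log2FC of -0.060 and was at 34.6 to 36.0 TPM with NT siRNAs and at 31.5 to 35.9 TPM with *Uba1* siRNAs. After median-ratio scaling its log2FC was -0.18, with an unadjusted p of 0.0265 and an adjusted p of 0.387. The inhibitor gene *Psmf1* was at 4.16 to 4.70 TPM and 4.66 to 5.04 TPM. Its log2FC was 0.095 (adjusted p = 0.445 from limma) and -0.0052 after median-ratio scaling. *Psmc3ip* and *Psme3ip1* had a log2FC of -0.18 and 0.097, with adjusted p of 0.50 and 0.513 from limma.

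The difference between the legs varied from mouse to mouse. In mouse 1, 42 of the 43 genes were higher in the leg with *Uba1* siRNAs (83.3% of all genes tested were), with a median log2 difference between the legs of 0.31, against 0.19 over all genes. In mouse 2, 16 genes were higher (56.1% of all genes), with a median of -0.062 against 0.030. Mouse 3 had 34 higher genes (81.8% of all genes), with a median of 0.12 against 0.15, and mouse 4 had 19 (61.8%), with a median of -0.015 against 0.044. These counts depended on the scaling, with 41, 35, 29 and 32 higher genes in mice 1 to 4 without mitochondrial genes and 35, 7, 11 and 12 after median-ratio scaling. The median of the 43 genes was thus above that of all genes in mouse 1 and below it in the other mice, which also held after median-ratio scaling and after rescaling without mitochondrial genes. Across all 4 mice, 10 genes were higher in each (23.3%; 32.2% of all genes tested were) and 0 were lower in each (2.98% were).

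**Figure D4:**
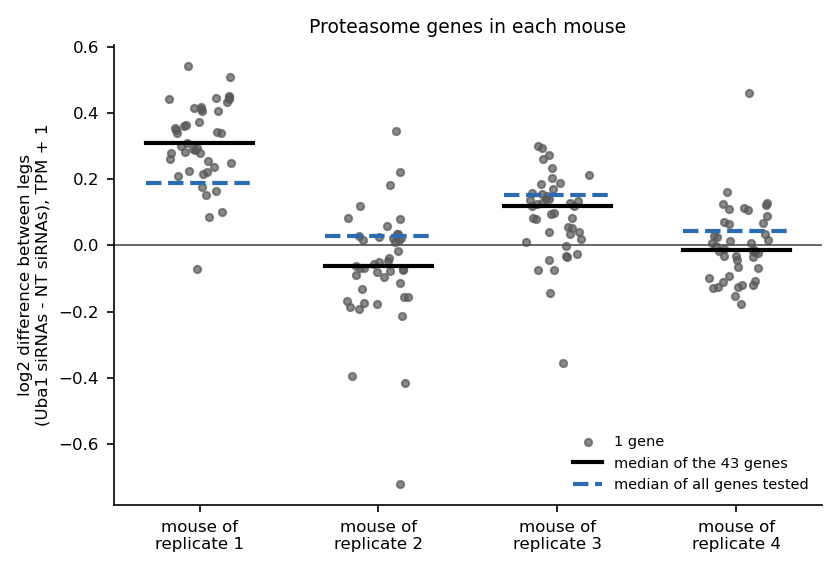
Difference between the legs of each mouse (*Uba1* siRNAs minus NT siRNAs) in log2(TPM + 1) for the 43 genes, with 1 point per gene. Solid lines are the medians of the 43 genes (0.31, -0.062, 0.12 and -0.015 in mice 1 to 4) and dashed lines those of all genes tested, and only in mouse 1 is the solid line above the dashed line.

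The NT muscle of mouse 1 was the lowest of the NT muscles for 34 of the 43 genes and for 30 of the 31 subunits. The summed TPM of the 31 subunits was 2282, 2548, 2590 and 2615 with NT siRNAs and 2888, 2427, 2760 and 2537 with *Uba1* siRNAs, with means of 2509 ± 154 and 2653 ± 209 (SD, n = 4 muscles each), so that the groups overlapped. The muscles with *Uba1* siRNAs that were high in this sum (mice 1 and 3) held 40.2% and 39.9% mitochondrial transcripts, and those that were low (mice 2 and 4) held 50.3% and 46.5%. Their leukocyte marker sums were 302 and 428 TPM against 126 and 154 TPM, and their adipocyte marker sums 55.7 and 57.9 TPM against 7.44 and 10.8 TPM. The endothelial marker sums did not split in this way (176 and 185 TPM against 204 and 161 TPM). How these sums relate to the subunit sum was not tested. When the TPM were rescaled without the mitochondrial genes, the sum was 4201 to 4601 with NT siRNAs and 4592 to 4886 with *Uba1* siRNAs. After median-ratio scaling it was 2380, 2693, 2616 and 2755 with NT siRNAs and 2581, 2501, 2471 and 2574 with *Uba1* siRNAs, so that the groups overlapped on each scale. The leg with *Uba1* siRNAs had the higher sum in 2 of 4 mice on the deposited TPM, in 4 of 4 without mitochondrial genes and in 1 of 4 after median-ratio scaling. Without mitochondrial genes 39 of the 43 genes had a log2FC above 0, against 83.5% of all genes tested on that scale. With both muscles of mouse 1 left out, 27 of the 43 genes had a log2FC above 0, against 71.5% of all genes, and the median log2FC minus that of all genes was -0.063.

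Inducible subunits can take the place of the catalytic ones: Psmb9 replaces Psmb6, Psmb10 replaces Psmb7 and Psmb8 replaces Psmb5. Their mRNAs were low beside those of the subunits they replace. The *Psmb9* level was 1.46%, 0.931%, 1.07% and 0.927% of that of *Psmb6* with NT siRNAs and 1.44%, 1.36%, 2.05% and 1.5% with *Uba1* siRNAs, higher in 3 of 4 mice and overlapping. The difference of the log2 ratios (of TPM + 1) was 0.38, and the exact permutation test over muscles gave p = 0.0571 (two-sided; adjusted over the 3 ratios, 0.171). The ratio of *Psmb10* to *Psmb7* was 8.84% ± 1.10 with NT siRNAs and 10.1% ± 0.90 with *Uba1* siRNAs, higher in 4 of 4 mice (exact permutation p = 0.171, adjusted 0.257), and the difference of its log2 ratios went from 0.17 to 0.094 without the NT muscle of mouse 4. The ratio of *Psmb8* to *Psmb5* was 1.46% ± 0.22 and 1.71% ± 0.48 (exact permutation p = 0.486, adjusted 0.486), and the difference of its log2 ratios went from 0.16 to 0.024 without the *Uba1* siRNA muscle of mouse 3. In these tests 4 muscles against 4 cannot give a p under 0.0286.

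**Figure D5:**
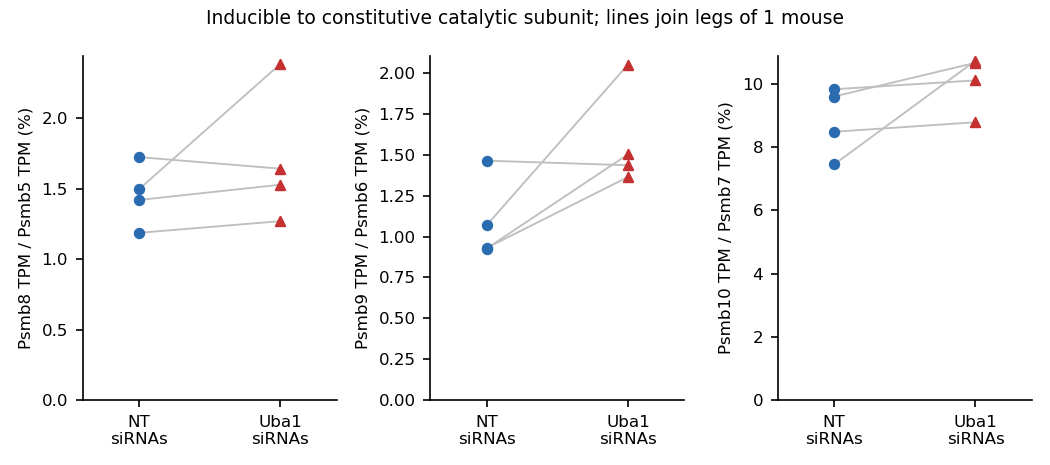
TPM of the inducible catalytic subunits *Psmb8*, *Psmb9* and *Psmb10* as a percentage of the TPM of the constitutive subunit each replaces, for each muscle, with a line joining the legs of a mouse. The groups overlap in each panel, and the ratio of *Psmb10* to *Psmb7* is higher with *Uba1* siRNAs in all 4 mice.

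All 5 immunoproteasome genes had a log2FC above 0 (81.8% of all genes tested did), with a median of 0.26, and stayed above 0 after median-ratio scaling (median 0.15) and quantile normalization. *Psme2*, a subunit of PA28αβ, was the most changed of them, at 16.3 to 20.8 TPM with NT siRNAs and 19.3 to 26.9 TPM with *Uba1* siRNAs (log2FC 0.31, adjusted p = 0.227 from limma). *Psmb8* was at 3.25 ± 0.38 TPM with NT siRNAs and 3.97 ± 1.4 TPM with *Uba1* siRNAs, *Psmb9* at 1.32 ± 0.23 and 1.80 ± 0.46 TPM, and *Psmb10* at 9.51 ± 1.06 and 11.7 ± 1.84 TPM (mean ± SD, n = 4 muscles each). None of the 5 passed the adjusted p in limma, with or without the block, and 3 of them were higher at an unadjusted p under 0.05, where 16.0% of all genes were. This count was 4 with the block, against 22.4% of all genes, and 1 (*Psme2*) after median-ratio scaling, against 4.43%.

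Among 17 genes of proteins that work with the proteasome, 15 had a log2FC above 0 (6 after median-ratio scaling), against 81.8% of all genes (50.7%). Their median log2FC was 0.10, 2 were higher at an unadjusted p under 0.05, against 16.0% of all genes, and 0 passed the adjusted p in limma. *Adrm1*, another ubiquitin receptor of the base, was at 30.4 to 33.6 TPM with NT siRNAs and at 31.5 to 37.3 TPM with *Uba1* siRNAs. Its log2FC was 0.12 (adjusted p = 0.376 from limma) and -0.00070 after median-ratio scaling. *Pomp*, a chaperone that helps the beta rings form, was at 22.4 to 28.2 TPM and 21.1 to 33.7 TPM (log2FC 0.021, adjusted p = 0.940 from limma). The most changed gene, *Fbxo7*, which encodes a partner of Psmf1, was at 2.23 to 2.54 TPM and 2.66 to 3.15 TPM, without overlap (log2FC 0.21, adjusted p = 0.210 from limma). After median-ratio scaling 0 of the 17 genes were higher at an unadjusted p under 0.05, against 4.43% of all genes, and 1 was lower (*Uchl5*, a deubiquitinase bound by Adrm1), against 6.18%.

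Among 12 genes of the Nrf1 route to proteasome genes, 9 had a log2FC above 0 (4 after median-ratio scaling), against 81.8% of all genes (50.7%), with a median of 0.11. In limma, 3 were higher and 2 lower at an unadjusted p under 0.05, against 16.0% and 1.98% of all genes, and 0 passed the adjusted p without the block (0.0260% of all genes did) and 2 with it (0.494%). At an unadjusted p under 0.05 there were 1 higher and 2 lower with the block, against 22.4% and 2.80% of all genes, and 0 higher and 3 lower after median-ratio scaling, against 4.43% and 6.18%. *Nfe2l1*, which encodes Nrf1, was at 252, 275, 260 and 279 TPM with NT siRNAs and at 296, 298, 292 and 294 TPM with *Uba1* siRNAs, without overlap. Its log2FC was 0.15 (adjusted p = 0.234 from limma), and 0.026 after median-ratio scaling. The small Maf proteins pair with Nrf1 on DNA, and *Maff* was at 8.85, 13.4, 7.47 and 10.5 TPM with NT siRNAs and at 2.38, 3.99, 2.69 and 6.65 TPM with *Uba1* siRNAs. It was lower in 4 of 4 mice without overlap, with a log2FC of -1.22 and an adjusted p from limma of 0.129, and of 0.0359 with the mouse as a block. *Mafk* was at 22.1, 35.7, 22.2 and 36.6 TPM and at 13.7, 17.5, 15.0 and 21.6 TPM, again lower in 4 of 4 mice without overlap (log2FC -0.73, adjusted p from limma 0.164, and 0.0278 with the block). The remaining small Maf gene of the list, *Mafg*, was at 23.3 to 29.9 TPM with NT siRNAs and at 25.7 to 33.6 TPM with *Uba1* siRNAs, higher in 3 of 4 mice, with a log2FC of 0.13 (adjusted p = 0.513 from limma) that was 0.011 after median-ratio scaling.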

How the data were processed

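Total RNA of 8 TA muscles was sequenced by the authors with paired-end 100-bp reads. They trimmed the reads, aligned them to GRCm39 in CLC Genomics Workbench and deposited TPM for each gene. The annotation and the treatment of reads with several matches are not given in the sources used here. Each muscle sums to 1000000 TPM, so the depth is unknown, no interval of counting error can be given, and precision rests on 4 muscles per group.

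Genes that reached 1 TPM in 4 or more of the 8 muscles were tested on log2(TPM + 1) with limma (version 3.58.1, R 4.3.3; lmFit, eBayes with trend), without covariates, with Benjamini-Hochberg adjustment over all genes tested. Exact permutation tests were two-sided (scipy 1.17.1). Same-numbered muscles come from the same mouse, and their deviations from the group means correlated at -0.00037, 0.20, 0.58 and 0.54. The highest correlation of each NT muscle with a *Uba1* siRNA muscle of another mouse was 0.135, -0.0108, 0.446 and 0.254. For mouse 1 this was above the value of its own pair. Alternatives were a pseudocount of 0.1, no filter, a mean of 5 TPM or more, median-ratio and quantile scaling, rescaling without 37 mitochondrial genes, the mouse as a block (also with each scaling), an exact Kruskal-Wallis test and leaving out each muscle. Leaving out mouse 1, and counting genes with a log2FC above 0 under each alternative, were chosen after seeing the data.

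Genes were chosen by name, and roles and lists from general knowledge, with earlier results of these data known. Named with all values were the catalytic subunits, *Psmd4*, *Psmd14*, any gene passing the adjusted p with or without the block, and the gene with the smallest p of each role of at least 3 genes; of the lists, *Adrm1*, *Pomp*, *Nfe2l1*, the inducible subunits and the most changed gene or any that passed. *Psmb2*, *Psme3* and *Psmf1* are given in addition. *Paaf1*, listed with the associated genes, was not analysed here. Positions are from GENCODE (GRCm39), promoters from RefSeq (GRCm38.p6). Every column of values belongs to one of the labelled muscles.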

Additional observations from a re-analysis of the deposited data

Results flagged for a closer look

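In each group of 4 muscles, the highest or lowest muscle was set against the other 3 by Dixon's criterion at the 95% level. Of 94 groups looked at, 7 had a muscle apart, where chance gives about 1 in 20, or 4.7. The NT muscle of mouse 1 was low for *Psma4* (64.61 TPM, against 70.82, 71.05 and 71.9 TPM), for *Psmb2* (72.83 TPM, against 79.15, 79.2 and 80.08 TPM) and for *Psmc4* (63.17 TPM, against 70.5, 70.82 and 72.01 TPM). With *Uba1* siRNAs, mouse 1 was high for *Psma2* (44.26 TPM, against 36.06, 36.48 and 37.34 TPM). The muscle with *Uba1* siRNAs of mouse 2 was low for *Psmd4* (73.79 TPM, against 84.27, 84.32 and 85.6 TPM) and for *Psmd3* (38.34 TPM, against 43.36, 44.25 and 44.4 TPM). The NT muscle of mouse 2 was high for *Psme3ip1* (12.75 TPM, against 11.44, 11.64 and 11.65 TPM).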

How the results depend on the processing

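No proteasome gene was called under any of the alternatives, of which the Kruskal-Wallis test says nothing about single genes, since it called no gene at all. The fit without mouse 1 called no gene either, *Uba1* included, so that it says little about single genes. All genes called numbered 3 with limma, 0 with the Kruskal-Wallis test and with mouse 1 left out, 14 without mitochondrial genes, 11 among genes with a mean of at least 5 TPM, 23 after median-ratio scaling and 28 after quantile normalization. The replicate block gave 57, or 76 and 62 after these scalings in turn, and 2 to 39 were called with each muscle left out, most of them (39) without the *Uba1* siRNA muscle of mouse 4. The log2FC of *Uba1* passed the adjusted p at -2.0 without mitochondrial genes, -1.98 under the stricter filter, -2.09 after median-ratio scaling, -2.06 after quantile normalization, -1.98 with the block, and -2.09 and -2.06 with the block after these scalings, and ranged from -2.18 to -1.64 with each muscle left out. It did not pass with the Kruskal-Wallis test (adjusted p = 0.245), without a filter (0.131), with a pseudocount of 0.1 (0.0666), without mouse 1 (0.172) and in 6 of the 8 fits with 1 muscle left out (0.0838 to 0.23). A log2FC above 0 was found for 14 proteasome genes after median-ratio scaling, with or without the block, and for 32 to 40 with each muscle left out. Among 246 pairs of a named proteasome gene and an alternative, 19 changed sign. With median-ratio scaling, also with the block, the log2FC was -0.093 for *Psmb5*, -0.025 for *Psmb7*, -0.032 for *Psmc2*, -0.026 for *Psmd14* and -0.030 for *Psmd9*, and with quantile normalization, also with the block, -0.0081 for *Psmb5* and -0.029 for *Psmd9*. Without mouse 1 it was -0.098 for *Psmb5*, -0.0070 for *Psmb7* and -0.013 for *Psmd14*. *Psmb5* also changed sign without either single muscle of mouse 1, at -0.054 and -0.016, and ranged from -0.054 to 0.083 with each muscle left out. The cause was not tested. The block changed no call on a proteasome gene. For the 3 ratios the paired test over 4 mice cannot give a p under 0.125, so that it says nothing about their calls. The median of the proteasome genes relative to all genes stayed between -0.063 and 0.049.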
